A study of Mus musculus with 23 samples.

Results

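The genes described here are 9 members of the JAK and STAT families, the kinases Jak1, Jak2, Jak3 and Tyk2 and the transcription factors Stat2, Stat3, Stat5a, Stat5b and Stat6. They were taken by symbol from the 24454 genes of the count table. All 9 passed the filter on low counts in every comparison.

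The study sequenced polyadenylated RNA of haematopoietic stem cell fractions and megakaryocyte progenitors from marrow of C57BL/6 mice. The SclCre;V617F mice, called V617F below, carry the V617F form of the kinase JAK2 together with a Cre recombinase named after Scl, a transcription factor of blood stem cells also called Tal1, and were set against wild type (WT) mice. Mice of both genotypes received tamoxifen on 5 days and were sampled 12 weeks later. The labels call the V617F mice transgenic and do not give the species, the copy number or the promoter of the V617F sequence, the ages, or whether WT mice carried Cre.

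CD41-negative HSC and CD41-positive HSC, stem cell fractions without and with the integrin of the megakaryocyte lineage on their surface, were prepared with SMART-Seq v4. There were 3 libraries of each of these fractions from V617F mice, against 3 CD41-negative and 2 CD41-positive libraries from WT mice. Long-term stem cells (LT-HSC) and megakaryocyte progenitors (MkP) were prepared with SMART-Seq v2, with 3 libraries per genotype and population. All WT mice were female. V617F mice were male for LT-HSC, female for MkP, and female in the CD41 fractions except for the mouse numbered 2, so that sex and genotype cannot be told apart in LT-HSC, nor sex and population between MkP and LT-HSC of V617F mice.

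Library totals ran from 17579314 to 49191435 counts, and every member had at least 195 counts in each library. Levels are given as CPM, that is counts relative to the library total after scaling by the TMM method. Itga2b, which encodes CD41, stood at 697 ± 74.5 CPM in CD41-positive against 115 ± 20.04 CPM in CD41-negative HSC of V617F mice (SD, n = 3 each), and at 855 ± 86.1 (n = 2) against 187 ± 42.6 CPM (n = 3) in those of WT mice. Ly6a, the stem cell antigen Sca-1, was at 1.82 ± 0.810 CPM in MkP against 174 ± 57.2 CPM in LT-HSC of V617F mice, and at 1.29 ± 1.02 CPM in MkP against 258 ± 237 CPM in LT-HSC of WT mice (n = 3 each). Fewer genes had counts in WT libraries of the v2 protocol. The number was 15547 ± 217 in V617F against 13365 ± 466 in WT LT-HSC, and 14953 ± 281 in V617F against 11995 ± 491 in WT MkP. The sum of 12 granulocyte markers was 476 to 1185 CPM in V617F against 3763 to 6888 CPM in WT LT-HSC, and 1134 to 2577 CPM in V617F against 8355 to 12314 CPM in WT MkP. No list member was at 0 in any LT-HSC library. WT LT-HSC library 30 stood apart, with a scaling factor of 0.710 and 8.55% of its counts in 10 genes. Its lymphoid marker sum was 1139 CPM, against 165 and 210 CPM in WT LT-HSC libraries 31 and 32. The monocyte and macrophage sum was 2273 against 530 and 994 CPM, and the erythroid sum 625 against 186 and 200 CPM. Its megakaryocyte sum was lower, at 913 against 3412 and 2703 CPM. In WT CD41-negative HSC, libraries 1 and 3 held 1.38% and 1.68% of their counts in Lars2, against 0.101% in library 4. Library 1 there also had a scaling factor of 0.875 and 7.80% of its counts in 10 genes. Its granulocyte sum was 586 CPM, against 114 CPM in library 3 and 166 CPM in library 4. Nothing in the labels shows that replicates came from separate mice, so p-values measure the spread between these libraries.

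Cytokine receptors have no kinase activity of their own and hold JAK kinases at their inner side. When a cytokine brings receptor chains together, the JAKs phosphorylate each other, the receptor and STAT proteins, which pair and enter the nucleus to switch genes on. JAK2 serves the receptors of erythropoietin, thrombopoietin and the interleukin 3 family, and V617F, a change in its pseudokinase domain, leaves it active without a cytokine and is found in most human myeloproliferative neoplasms of the polycythaemia vera type.

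The mouse codon at the position of V617F is shown for reference. The labels do not say whether the V617F sequence of these mice is a change of this codon or an added copy. In the reference transcript Jak2-201 (GENCODE M21, GRCm38) this codon lies in exon 13, on the plus strand at chr19:29294928-29294930. The printed stretch runs from chr19:29294898-29294943, up to the end of that exon, with the codon in capitals as the reference has it.
Jak2 codon of V617F: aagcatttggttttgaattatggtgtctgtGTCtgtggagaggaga
The table holds a count per gene and no bases, so the share of Jak2 reads with the variant could not be read from it. Whether the Jak2 row takes in transcripts of the V617F allele is not given in the sources used here.

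Stat5a and Stat5b are shown next because their counts may not be separable. They neighbour each other on chromosome 11, Stat5a at chr11:100859351-100885169 on the plus strand and Stat5b at chr11:100780731-100850724 on the minus strand. Transcripts Stat5a-201 and Stat5b-202 share an identical run of 324 bases. The stretch printed is coding sequence of Stat5a, within chr11:100874003-100874377 with introns left out, and capitals mark the first 150 bases of the shared run after 20 bases before it.
Stat5a: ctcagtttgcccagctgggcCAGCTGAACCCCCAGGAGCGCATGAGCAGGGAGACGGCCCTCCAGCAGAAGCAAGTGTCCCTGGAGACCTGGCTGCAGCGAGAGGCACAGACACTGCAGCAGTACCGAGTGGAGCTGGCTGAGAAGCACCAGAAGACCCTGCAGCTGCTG
Of the windows of 50 bases, 15.8% of those in Stat5a and 11.8% of those in Stat5b were found in the other gene, so levels of this pair are uncertain where the authors' counting could split or drop such reads. The next longest run shared by 2 members was 23 bases, between Stat2 and Stat3. Stat3 overlaps the end of Stat5a on the opposite strand, and Jak1, Jak3, Tyk2 and Stat6 also overlap annotated neighbours. The sources used here do not say whether counting used strand.

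Levels between genes were compared per transcript length, as RPKM. Jak1, which serves interferon and interleukin 6 type receptors, was the highest member in all 4 groups of the CD41 fractions, at 132 ± 9.89 RPKM in V617F against 154 ± 37.0 RPKM in WT CD41-negative HSC. Tyk2, the partner kinase of interferon receptors, and Stat2, which carries type I interferon signals, were the lowest there. The means in V617F CD41-negative HSC were 20.7 ± 0.652 RPKM for Tyk2 and 19.8 ± 2.78 RPKM for Stat2, with ranges that overlapped. In LT-HSC of both genotypes Stat3, which serves interleukin 6 type cytokines, and Jak1 led with overlapping ranges. Jak2 was seventh of the 9 in each CD41-fraction group. It was the lowest in WT LT-HSC (4.91 ± 2.19 RPKM) and in WT MkP (8.29 ± 1.08 RPKM), though its range there overlapped that of the next gene up.

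**Figure D1:**
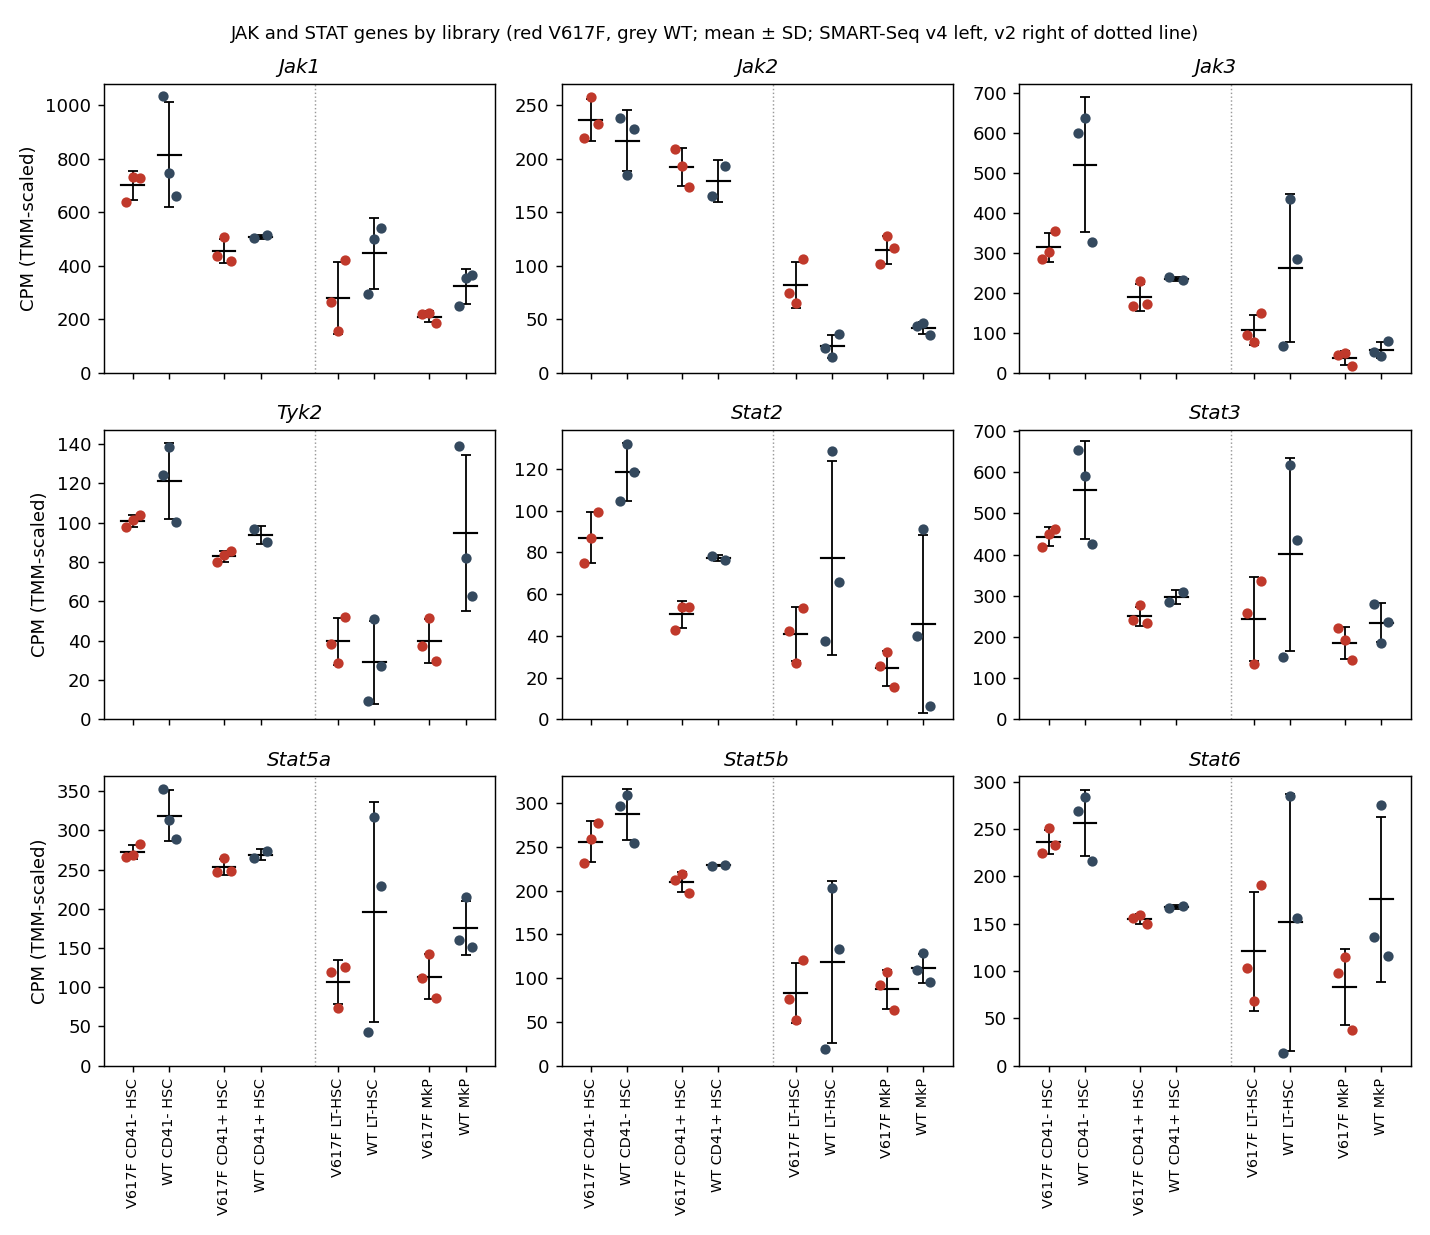
Level of each of the 9 genes (y axis, CPM on TMM-scaled totals, from 0) in 8 groups. Points are libraries, red for V617F and grey for WT, and bars are mean and SD. Jak2 is the gene whose V617F points stand above all WT points in both LT-HSC and MkP, and points of CD41-positive HSC lie lower than those of CD41-negative HSC for all 9 genes in V617F mice.

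Jak2 had the largest fitted difference between genotypes of the 9 genes in both SMART-Seq v2 populations, higher in V617F mice, without passing the test. In LT-HSC it stood at 74.6, 65.6 and 107 CPM in V617F libraries, against 23.4, 14.5 and 36.5 CPM in WT libraries. Every V617F library was above every WT library, as for 13.6% of all genes tested. The fitted ratio was 3.31-fold (log2 1.73, 95% interval 0.89 to 2.56), and the adjusted p of edgeR's quasi-likelihood test over all genes was 0.149, which did not pass the threshold of 0.05.

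In MkP, Jak2 stood at 102, 128 and 116 CPM in V617F libraries, against 43.4, 46.4 and 35.8 CPM in WT libraries. The groups were again apart, with V617F above WT as for 21.0% of all genes. The ratio was 2.75-fold (log2 1.46, 95% interval 0.63 to 2.29, adjusted p = 0.0757 by edgeR), and it too did not pass. Jak2 did pass with DESeq2 in both populations, with an adjusted p of 0.00131 in LT-HSC and 0.00412 in MkP, and in MkP with a fit of only the groups compared (0.0341).

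In the CD41 fractions Jak2 was close between genotypes. In CD41-negative HSC it stood at 219, 258 and 232 CPM in V617F libraries, against 238, 185 and 228 CPM in WT libraries. In CD41-positive HSC it stood at 209, 193 and 174 CPM in V617F libraries, against 165 and 193 CPM in WT libraries. The groups overlapped in both fractions. The log2 differences were 0.12 (95% interval -0.16 to 0.40) and 0.10 (-0.22 to 0.41), with adjusted p-values of 0.498 and 0.858 by edgeR. The intervals end below the lower bounds found in LT-HSC and MkP, but the library protocol differs between these pairs of populations and the difference between them was not tested.

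As a share of the summed RPKM of the 4 kinases, Jak2 made up 14.2 to 19.4% in V617F LT-HSC against 1.34 to 5.90% in WT LT-HSC. In MkP the share was 25.01 to 33.3% in V617F against 6.52 to 8.91% in WT. The shares of the CD41 fractions lay closer, at 15.7 to 17.9% in V617F against 10.1 to 16.6% in WT CD41-negative HSC, and at 18.4 to 22.8% in V617F against 15.9 to 18.2% in WT CD41-positive HSC. A share moves with each of its parts, and Jak1 and Jak3 had lower fitted values in V617F in all 4 populations, none but Jak3 in CD41-negative HSC past the threshold.

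**Figure D2:**
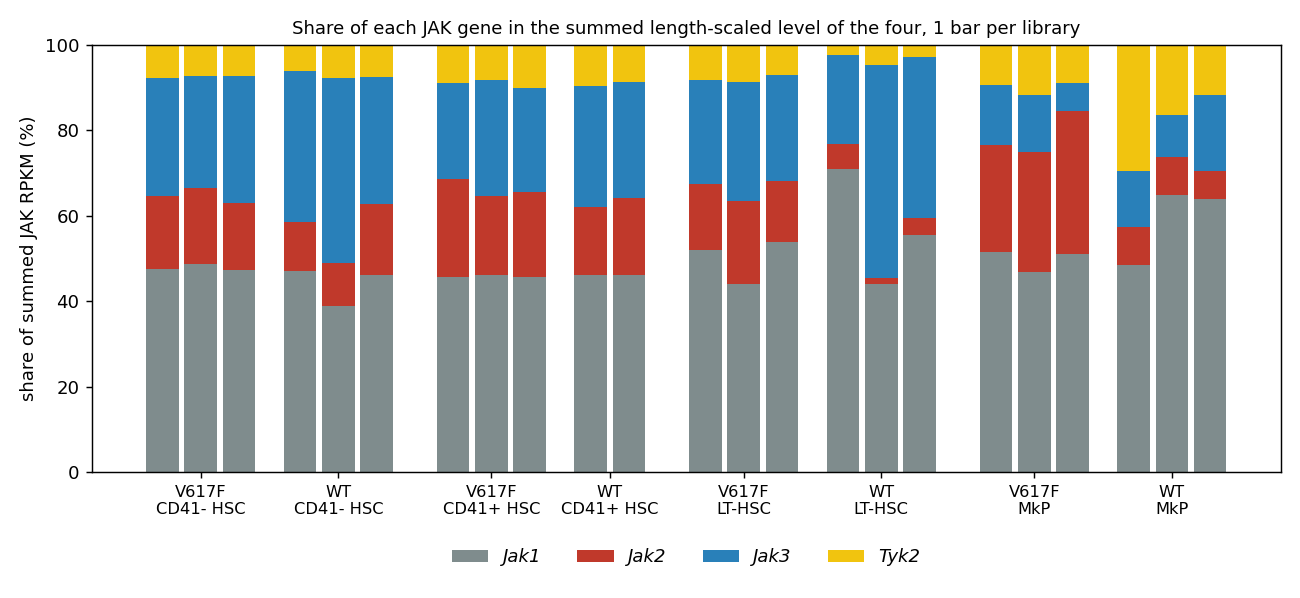
Share of Jak1, Jak2, Jak3 and Tyk2 in the summed RPKM of the 4 genes (y axis, percent), with 1 bar per library. The Jak2 segment is 14.2 to 33.3% in V617F and 1.34 to 8.91% in WT libraries of LT-HSC and MkP.

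Measured features of the libraries also differed between the genotypes. Between V617F and WT, genes of low GC content had higher fitted values than genes of high GC content. Over 5 equal classes of genes by GC of the longest coding transcript, the median log2 difference was 0.27 in the lowest and -0.35 in the highest class in LT-HSC, 0.28 and -0.07 in MkP, 0.34 and -0.39 in HSC without CD41 and 0.08 and -0.05 in those with it. Jak2, at 44.3% GC, is in the lowest class, and Jak3, at 61.1%, and Tyk2, at 57.0%, are in the highest. Jak2 lies at the upper edge of its class, so values relative to it depend on where the classes are cut. The median of the next class was 0.04 in LT-HSC, 0.11 in MkP, 0.16 in CD41-negative HSC and 0.06 in CD41-positive HSC. Relative to the median of its own class, Jak2 was higher by 1.46 in LT-HSC and 1.17 in MkP on the log2 scale, and differed by -0.22 in CD41-negative HSC and by 0.01 in CD41-positive HSC. The granulocyte marker sums and the numbers of genes with counts given above also differed between the genotypes in LT-HSC and MkP. In MkP the erythroid sum was 90.7 to 149.99 CPM in V617F against 572 to 623 CPM in WT, the mast cell and basophil sum 253 to 415 against 653 to 708 CPM, and the monocyte and macrophage sum 334 to 398 against 468 to 672 CPM. The part of all these in the Jak2 difference was not tested. In bulk samples fewer cells of a type and less RNA per cell cannot be told apart.

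**Figure D3:**
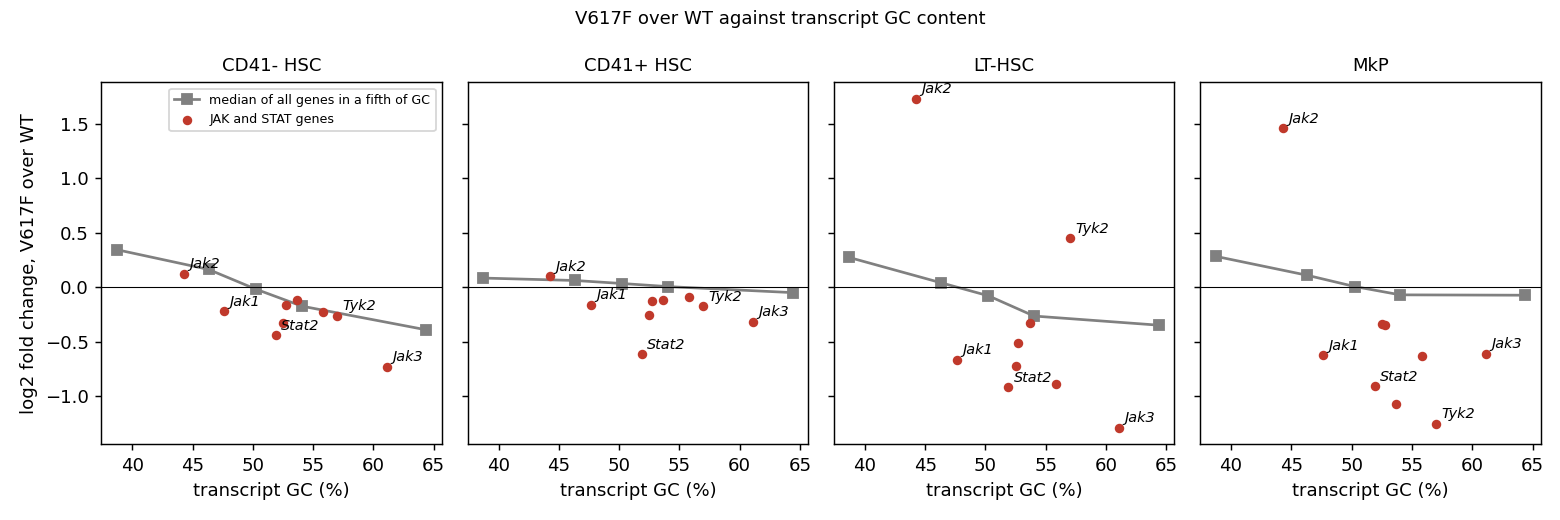
Log2 fold change of V617F over WT (y axis) against GC content of the transcript in percent (x axis) in 4 populations. Grey squares are medians of all genes in 5 classes of GC, drawn at the middle of each class's range, and red points are the 9 genes. In LT-HSC and MkP Jak2 lies above the grey line and Jak1, Jak3 and Stat2 below it.

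The 5 genes nearest to Jak2 over the 23 libraries, by the root mean square difference of log2 CPM centred within each protocol, were Rbm26 (0.27), Wapl (0.28), Ahcyl1 (0.28), Gsk3b (0.29) and Nras (0.30), out of 12523 candidates. The median candidate was 1.004 away. The measure includes the genotype differences in LT-HSC and MkP, so it favours genes that share them. All 5 had V617F above WT without overlap in both, as did 13.6% and 21.0% of all genes. That follows in part from how the 5 were picked and is no separate result, nor are the values given next. Gsk3b was at 294 CPM in V617F against 101 CPM in WT MkP and passed (adjusted p = 0.0359 by edgeR), and Nras was at 310 against 127 CPM and did not (0.0534). Within the 9 members, Stat5a and Stat5b were the nearest pair (0.20), followed by Jak1 and Stat3 (0.29), and Jak2 and Jak3 were the farthest apart (1.43). These distances describe 23 libraries that share their protocols and sorts.

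Among the other kinases, Jak3, which works with the common gamma chain of interleukin receptors, was the one kinase that passed between genotypes. In CD41-negative HSC it stood at 284, 303 and 354 CPM in V617F libraries, against 599, 636 and 327 CPM in WT libraries. The groups overlapped, because WT library 4 lay among the V617F values. The difference was -0.73 on the log2 scale (95% interval -1.20 to -0.26, adjusted p = 0.0457 by edgeR).

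Stat2 fell in the same cells, to 75.0, 86.8 and 99.5 CPM in V617F libraries, against 104, 132 and 119 CPM in WT libraries. All V617F libraries were lower than all WT libraries. The difference was -0.44 on the log2 scale (95% interval -0.74 to -0.15, adjusted p = 0.0494 by edgeR). These 2 of 9 members passed, both lower, where 13.4% of all genes passed and 7.94% passed as lower.

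Both calls lie close to the threshold and ended when any 1 library other than WT library 4 was left out. Without WT library 1, the adjusted p was 0.122 for Jak3 and 0.0582 for Stat2, and without WT library 3 it was 0.154 and 0.158. Without V617F library 1, 2 or 3 it was 0.130, 0.108 and 0.0855 for Jak3, and 0.146, 0.110 and 0.0737 for Stat2. Without WT library 4, 5 members passed, all lower, where 6021 genes passed against 1941 with all libraries. With both WT libraries rich in Lars2 left out, a setting added after seeing the data that leaves 1 WT library assumed to vary like the other groups, the log2 difference was -0.07 for Jak3 and -0.45 for Stat2, and neither passed (adjusted p = 0.945 and 0.304 by edgeR). Neither passed with a fit of only the groups compared. In the same libraries, where 7.94% of all genes passed as lower, 5 of 11 megakaryocyte markers tested fell. The sum of the list was 1062 to 1240 CPM in V617F against 1669 to 1869 CPM in WT. Of 9 monocyte and macrophage markers 5 fell and 1 rose, with sums of 404 to 442 CPM in V617F against 411 to 494 CPM in WT. Also 9 of 12 erythroid markers fell, their sum being 51.6 to 130 CPM in V617F against 204 to 273 CPM in WT, with 1 or 2 of the markers at 0 in each V617F library and none in WT. Relative to the median of genes of like GC, Jak3 differed by -0.34 and Stat2 by -0.42. The part of these in either call was not tested.

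The other STAT genes of CD41-negative HSC did not pass. Stat5a, a main carrier of JAK2 signals together with Stat5b, stood at 266, 269 and 283 CPM in V617F libraries, against 353, 314 and 289 CPM in WT libraries, without overlap, as for 14.3% of all genes lower in V617F (log2 -0.22, adjusted p = 0.154 by edgeR). Stat3 averaged 443 ± 23 CPM in V617F against 557 ± 119 CPM in WT, and Stat6, which serves interleukin 4, 236 ± 13.1 against 256 ± 35.3 CPM (SD, n = 3 each), both with overlap. Of the 9 members 8 had a negative log2 difference, with a median of -0.22 where that of all genes was -0.01. Relative to the median of genes of like GC, Stat3 differed by -0.15, Stat5a by -0.05, Stat5b by 0.01 and Stat6 by 0.06. Jak1 differed by -0.38 and Tyk2 by 0.13. The part of GC content in these differences was not tested.

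In CD41-positive HSC no member passed, where 1.16% of all genes did. Stat2 came nearest. It stood at 43.0, 54.0 and 54.1 CPM in V617F libraries, against 78.2 and 76.3 CPM in WT libraries. The groups were apart, and the log2 difference was -0.62 (95% interval -0.94 to -0.29, adjusted p = 0.0822 by edgeR). It passed with DESeq2 (0.0155), without the filter on low counts (0.0458) and with a fit of only the groups compared (0.0204). In all, 6 members had all V617F libraries below both WT libraries, as did 17.8% of all genes, and 8 had a negative difference, with a median of -0.16 against 0.03 for all genes.

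In LT-HSC no member passed, where 0.0630% of all genes did, and in MkP none, where 1.75% did. The members with the smallest unadjusted p by edgeR were Jak2 (6.71e-04) and Jak3 (0.0484) in LT-HSC, and Jak2 (0.00228) and Tyk2 (0.0457) in MkP. Jak3 stood at 95.6, 76.3 and 149 CPM in V617F LT-HSC, against 66.8, 435 and 284 CPM in WT LT-HSC. The groups overlapped through WT library 30, the one that stood apart. Tyk2 stood at 37.4, 51.7 and 29.9 CPM in V617F MkP, against 139, 82.1 and 62.9 CPM in WT MkP, without overlap (log2 -1.25, adjusted p = 0.312 by edgeR). Besides Tyk2, Jak1, Stat5a and Stat6 had all V617F MkP libraries below all WT MkP libraries, which 9.99% of all genes also had.

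WT library 30 of LT-HSC held the lowest WT value of 8 of the 9 members, Jak2 being the exception. Stat6 was at 13.0 CPM there, against 285 and 156 CPM in the other two WT LT-HSC libraries, and Stat5b at 19.2 against 203 and 134 CPM. The SD of these genes in WT LT-HSC was therefore near their mean, and the 95% interval of the Stat6 difference between genotypes, -2.05 to 1.40 on the log2 scale, spans changes in both directions.

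**Figure D4:**
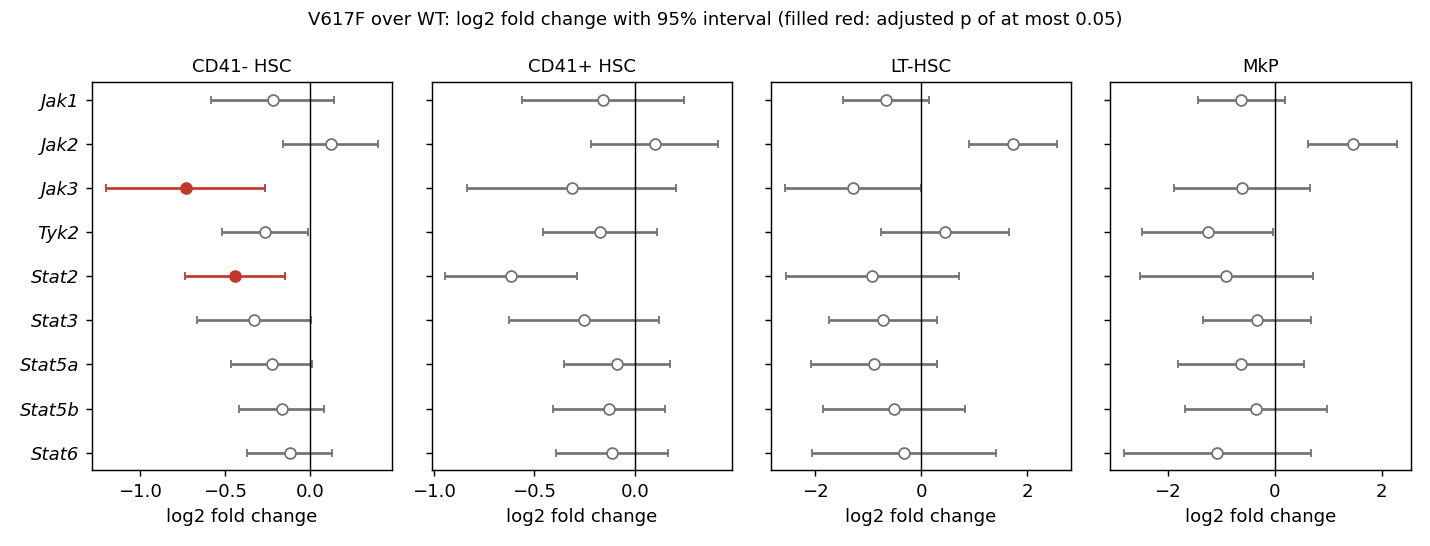
Log2 fold change of V617F over WT (x axis) with its 95% interval for the 9 genes in 4 populations; the x scales of the CD41 fractions and of LT-HSC and MkP differ. Filled red points passed an adjusted p of 0.05, which Jak3 and Stat2 did in CD41-negative HSC, and Jak2 lies right of 0 in all 4 panels.

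Across the 4 populations the fitted log2 difference was positive for Jak2 in each and negative for Jak1, Jak3, Stat2, Stat3, Stat5a, Stat5b and Stat6 in each. Tyk2 was positive in LT-HSC (0.45) and negative elsewhere. Not all of these signs held with libraries left out. Without WT library 31 of LT-HSC, Stat5b was at 0.12 and Stat6 at 0.51 there. Without WT library 31 of MkP, Stat2 was at 0.11 there. Without WT libraries 1 and 3 of CD41-negative HSC, Jak1 was at 0.07, Stat3 at 0.05 and Stat6 at 0.12. The lowest Jak2 value in CD41-positive HSC with 1 library left out was -0.01. Equal-numbered V617F libraries of the CD41 fractions varied together, so these fractions are not independent. The genotype difference itself was not shown to depend on population. No member passed in the test of that difference between CD41-positive and CD41-negative HSC, where 0 of 14467 genes passed with edgeR, 0% of them, and 6 with DESeq2, nor between MkP and LT-HSC, where 0.455% passed and the V617F mice also differ in sex. Tyk2 had the smallest unadjusted p of the members in the second test (0.0518, log2 -1.70).

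In V617F mice 5 of 9 members fell in CD41-positive HSC and none rose, where 34.3% of all genes passed and 17.9% passed as lower. Stat3 stood at 240, 277 and 233 CPM in CD41-positive against 418, 451 and 462 CPM in CD41-negative libraries (log2 -0.83, SE 0.16, adjusted p = 0.00151 by edgeR). Stat2 stood at 43.0, 54.0 and 54.1 CPM in CD41-positive against 75.0, 86.8 and 99.5 CPM in CD41-negative libraries (log2 -0.79, SE 0.14, adjusted p = 9.01e-04). The others were Jak3 (log2 -0.73), Jak1 (-0.62) and Stat6 (-0.61).

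All 9 members had every CD41-positive V617F library below every CD41-negative V617F library, as did 27.7% of all genes. The median log2 difference of the 9 was -0.61, and that of all genes -0.02. Stat5a moved least, at 247, 265 and 248 CPM in CD41-positive against 266, 269 and 283 CPM in CD41-negative libraries (log2 -0.11, 95% interval -0.34 to 0.13, adjusted p = 0.475). Jak2 averaged 192 ± 17.9 CPM in CD41-positive against 236 ± 19.8 CPM in CD41-negative HSC (SD, n = 3 each). It did not pass (log2 -0.30, adjusted p = 0.0920 by edgeR). With the replicate number as a block its adjusted p was 0.0499, and the calls of the other members stayed as they were. Jak1 was lost without CD41-positive library 1 (0.0548) or 3 (0.0627) and without the male mouse (0.0556), and Jak3 without CD41-positive library 1 (0.0867) or 3 (0.0825) or CD41-negative library 3 (0.0778).

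In WT mice 6 of 9 members fell in CD41-positive HSC, where 34.0% of all genes passed and 18.2% passed as lower. They were the 5 named for V617F mice and Tyk2. Jak3 stood at 239 and 232 CPM in CD41-positive against 599, 636 and 327 CPM in CD41-negative libraries (log2 -1.15, SE 0.25, adjusted p = 0.00560 by edgeR). Stat3 stood at 286 and 309 CPM in CD41-positive against 654, 591 and 424 CPM in CD41-negative libraries (log2 -0.90, SE 0.18, adjusted p = 0.00327). In both genes the groups were apart. Of the 9 members 8 had both CD41-positive libraries below every CD41-negative library, as did 29.3% of all genes, and Jak2 was the exception, at 165 and 193 against 238, 185 and 228 CPM.

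The WT calls changed when single libraries were left out. With either CD41-positive library left out the other is assumed to vary like the other groups. Without CD41-positive library 3, 2 members passed, and Jak1 (adjusted p = 0.109), Tyk2 (0.134), Stat2 (0.0699) and Stat6 (0.0517) did not. Without CD41-positive library 4 only Stat3 passed. Tyk2 was also lost without CD41-negative library 1 (0.111) or 3 (0.122), with no filter (0.114) and with another scaling (0.0509). Without CD41-negative library 4, Stat5a (0.0378) and Stat5b (0.0137) passed as well, where 7082 genes passed against 4917 with all libraries. Without CD41-negative libraries 1 and 3, Stat2, Stat3 and Stat6 passed, and Jak3 (log2 -0.48, adjusted p = 0.103), Jak1 (-0.39, 0.0700) and Tyk2 (-0.10, 0.550) did not. In V617F mice Stat2, Stat3 and Stat6 passed with each V617F library left out in turn.

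**Figure D5:**
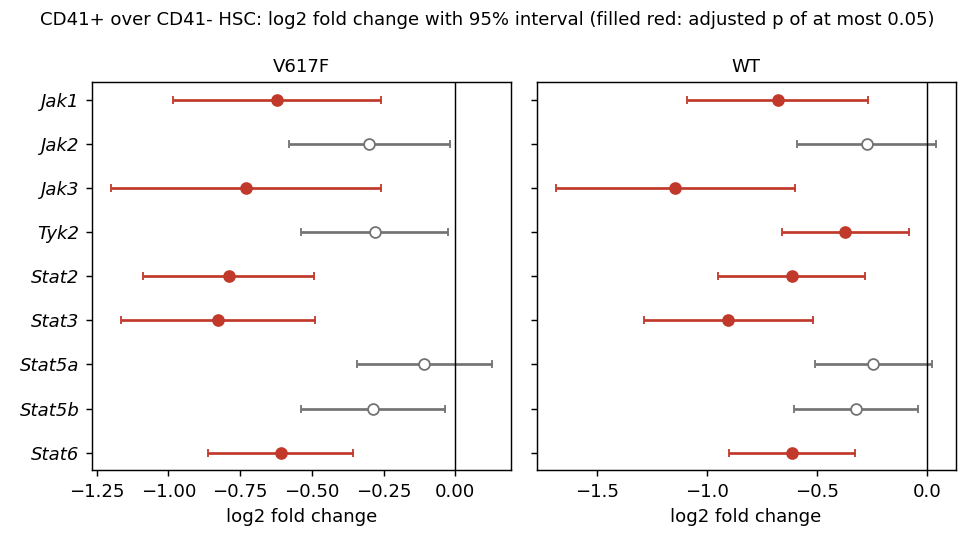
Log2 fold change of CD41-positive over CD41-negative HSC (x axis) with its 95% interval for the 9 genes, in V617F mice on the left and WT mice on the right, on different x scales. All 18 points lie left of 0, and filled red points, 5 in V617F and 6 in WT, passed an adjusted p of 0.05.

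The megakaryocyte markers went the other way. Of 11 tested, 10 rose in CD41-positive HSC of V617F mice and 10 in those of WT mice. Of all genes 34.3% and 34.0% passed there in either direction. The list includes Itga2b, which encodes the CD41 that defines the fractions. Granulocyte markers summed to 51.9 to 136 CPM in CD41-positive against 166 to 201 CPM in CD41-negative HSC of V617F mice, and to 82.5 to 91.2 CPM in CD41-positive against 114 to 586 CPM in CD41-negative HSC of WT mice. In WT mice the fitted difference between the fractions also moved with GC content, with a median log2 difference of 0.22 in the lowest and -0.40 in the highest of the 5 classes, while in V617F mice it was -0.04 in both. Relative to its class Tyk2 differed by 0.03 in WT mice, and the other five that fell there by -0.41 to -0.78. The part of these in the differences of the 9 genes was not tested.

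The makeup of the summed STAT level also stood apart between the fractions, as a description with no test. Stat3 made up 26.1 ± 1.05% of the summed STAT RPKM of the 5 genes in CD41-positive against 33.003 ± 0.0447% in CD41-negative HSC of V617F mice (SD, n = 3 each), and Stat5a and Stat5b together 49.1 ± 0.636% against 39.4 ± 0.711%. In WT mice Stat3 made up 27.6 ± 0.883% in CD41-positive (n = 2) against 34.7 ± 3.12% in CD41-negative HSC (n = 3), and the Stat5 pair 46.6 ± 0.339% against 38.4 ± 1.90%. The library ranges of both shares were apart in both genotypes. The ratio of Stat5a to Stat5b in RPKM was 1.69 ± 0.0672 in CD41-positive against 1.497 ± 0.0989 in CD41-negative HSC of V617F mice, and 1.64 ± 0.0368 (n = 2) against 1.56 ± 0.127 (n = 3) in those of WT mice, where the ranges overlapped.

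Between MkP and LT-HSC of V617F mice, which also differ in sex, no member passed, where 1.09% of all genes did. Jak3 had every MkP library below every LT-HSC library, at 45.8, 48.7 and 18.6 CPM in MkP against 95.6, 76.3 and 149 CPM in LT-HSC (log2 -1.51, adjusted p = 0.359 by edgeR). Of all genes, 24.5% were apart in that direction. In WT mice Jak3 was the 1 member that passed, where 8.90% of all genes did and 6.58% as lower. It stood at 51.9, 42.0 and 78.8 CPM in MkP against 66.8, 435 and 284 CPM in LT-HSC (log2 -2.18, 95% interval -3.50 to -0.87, adjusted p = 0.0434). The groups overlapped through WT LT-HSC library 30.

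The Jak3 call ended without LT-HSC library 31 (adjusted p = 0.110) or 32 (0.0559) and without MkP library 30 (0.0906), 31 (0.103) or 32 (0.0564). It also ended with the replicate number as a block (log2 -1.86, adjusted p = 0.547 by edgeR). Tyk2 stood at 139, 82.1 and 62.9 CPM in WT MkP against 9.11, 50.9 and 26.9 CPM in WT LT-HSC, without overlap, as 8.39% of all genes were in that direction, and did not pass (log2 1.71, adjusted p = 0.0796 by edgeR), though it did with DESeq2 (0.0176) and without LT-HSC library 31 (0.0323). In V617F mice Tyk2 averaged 39.7 ± 11.1 CPM in MkP and 39.6 ± 11.8 CPM in LT-HSC (SD, n = 3 each).

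The other genes of the pathway were read from 4 lists. Of 18 feedback inhibitors and phosphatases, 2 rose and 1 fell in V617F CD41-negative HSC, where 13.4% of all genes passed and 7.94% as lower. Those that rose were Socs2 and Cish, inhibitors that STAT5 induces. Pias4, an inhibitor that marks STAT proteins with SUMO, averaged 28.2 ± 2.77 CPM in V617F against 44.2 ± 11.2 CPM in WT (adjusted p = 0.0308 by edgeR). In CD41-positive HSC Socs2 alone of the list rose. Socs2 did not pass in MkP, at 52.3 ± 2.99 CPM in V617F against 16.0 ± 7.48 CPM in WT (adjusted p = 0.0545), or in LT-HSC, at 197 ± 37.2 against 59.8 ± 16.8 CPM (0.154). In MkP, where 1.75% of all genes passed, 1 gene of the list rose, Socs3, a feedback inhibitor of JAK kinases, with 2.60 ± 2.54 CPM in V617F and no count in any WT library (adjusted p = 0.0380). Between CD41-positive and CD41-negative HSC, 1 rose and 8 fell in V617F mice, and 1 rose and 7 fell in WT mice, where 34.3% and 34.0% of all genes passed. Socs5, another member of the inhibitor family, fell to 48.7 ± 4.93 CPM in CD41-positive against 91.9 ± 10.4 CPM in CD41-negative HSC of V617F mice (adjusted p = 1.21e-04). Between MkP and LT-HSC, 2 fell in V617F mice, where sex differs too, and 3 in WT mice, against 1.09% and 8.90% of all genes that passed. Ptpn6, the phosphatase SHP-1, was among them in both, at 252 ± 5.50 CPM in MkP against 563 ± 81.5 CPM in LT-HSC of V617F mice and at 359.9 ± 19.3 against 779 ± 83.6 CPM in WT mice (adjusted p = 0.0460 and 0.0166).

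Of 26 cytokine receptor genes tested out of 28, 1 rose and 6 fell in V617F CD41-negative HSC, and 1 rose and 2 fell in V617F CD41-positive HSC. The shares of all tested genes that passed were 13.4% and 1.16%. Csf2rb, the shared chain of the interleukin 3 and GM-CSF receptors, which hold JAK2, was the one that rose in both. It averaged 97.0 ± 10.7 CPM in V617F against 40.1 ± 15.5 CPM in WT CD41-negative HSC (adjusted p = 0.0132 by edgeR). Il21r, which pairs with the common gamma chain, fell to 69.8 ± 2.82 CPM in V617F against 145 ± 38.0 CPM in WT CD41-negative HSC (adjusted p = 0.00673). Osmr, the oncostatin M receptor, had no count in the 3 V617F CD41-negative libraries, against 0.533 ± 0.418 CPM in WT, and 0.0166 ± 0.0288 CPM in V617F against 2.17 ± 0.873 CPM in WT CD41-positive HSC (adjusted p = 0.0166 and 0.0136).

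Between the fractions of V617F mice, 13 of the 26 receptor genes fell and 2 rose in CD41-positive HSC, and in WT mice 12 fell and 3 rose. Of all genes 17.9% in V617F mice and 18.2% in WT mice passed as lower. Il2rg, the common gamma chain that JAK3 binds, fell to 73.5 ± 8.41 CPM in CD41-positive against 219 ± 13.5 CPM in CD41-negative HSC of V617F mice (adjusted p = 6.24e-06 by edgeR), and to 83.7 ± 8.60 against 223 ± 21.8 CPM in WT mice (4.82e-05). Epor, the erythropoietin receptor, rose to 46.2 ± 8.15 CPM in CD41-positive against 9.27 ± 1.96 CPM in CD41-negative HSC of V617F mice (6.55e-05), and Csf3r, the G-CSF receptor, fell to 28.6 ± 12.7 against 129.9 ± 16.3 CPM (5.31e-05). Sh2b3, the adaptor LNK that restrains JAK2 in stem cells, fell to 42.3 ± 5.87 against 116 ± 10.9 CPM in V617F mice (1.54e-04). Irf9, which binds DNA with STAT2, fell to 110 ± 6.66 against 182 ± 6.64 CPM in V617F mice (4.52e-04).

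Of 17 STAT target genes, 3 rose and 6 fell in V617F CD41-negative HSC, and 1 rose and 2 fell in CD41-positive HSC, where the shares of all tested genes that passed were 13.4% and 1.16%. In LT-HSC 1 fell and in MkP 1 rose, against 0.0630% and 1.75% of all genes. Of 13 STAT partners and adaptors, Stam2, a signal transducing adaptor that can bind JAK kinases, rose in V617F CD41-negative HSC and none passed between genotypes elsewhere. Between CD41-positive and CD41-negative HSC of V617F mice, 5 target genes rose and 6 fell, and 4 partners fell and none rose. In WT mice 2 target genes rose and 3 fell, and 6 partners fell and none rose. Of all genes 34.3% passed in V617F and 34.0% in WT mice. Between MkP and LT-HSC, 1 receptor gene fell in V617F mice, and 2 receptor genes and 3 target genes fell in WT mice, where 1 partner rose and 1 fell, against 1.09% and 8.90% of all genes that passed. No receptor gene passed between genotypes in LT-HSC or MkP.

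The promoters of the members were searched for TTCNNNGAA, the palindrome that STAT dimers bind, which reads the same on both strands. It was in 0 of the 11 RefSeq windows (GRCm38.p6, 300 bases each) that matched the 9 members, and in 8.30% of 32851 such windows of all genes. An absent match says only that these letters are not in those windows.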

How the data were processed

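RNA-seq of 23 libraries was analysed, 11 prepared with SMART-Seq v4 (CD41 fractions) and 12 with SMART-Seq v2 (LT-HSC, MkP), from RNA purified with PicoPure and made into libraries with Nextera XT, per the labels' protocols. The authors deposited raw gene counts with a length per gene. Reads were mapped with STAR 2.5.2a to mm10 and processed in R 3.4.2, per the submitters' processing notes. Neither the counting tool nor its annotation is given in the sources used here.

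The counts were fitted with edgeR 4.0.16 in R 4.3.3 (TMM scaling, filterByExpr, quasi-likelihood test, 1 mean per group), each protocol apart, and p-values were adjusted by the Benjamini-Hochberg method over all genes tested, 14467 in v4 and 14281 in v2, with a threshold of 0.05. Passed, rose and fell refer to this test. Intervals are at 95%. RPKM used the deposited lengths, and log CPM for the profile distances a prior count of 2. DESeq2 1.42.0, another scaling, no filter, a fit of only the groups compared, a replicate block and libraries left out were tried. The script was checked on simulated counts.

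The 9 genes and the gene lists were chosen with earlier results of these data known. The text names the members in every comparison, up to 3 genes per pathway list and comparison with the smallest adjusted p, and the 5 genes nearest to Jak2. Genes followed from one comparison into others were chosen after their values were seen. Sequences and loci are from GENCODE M21 (GRCm38, the assembly of mm10). GC content was known for 91.5% of v4 and 91.3% of v2 genes. In the V617F CD41 fractions equal numbers were taken to pair the libraries, since the deviations of equal-numbered libraries correlated at 0.283, 0.396 and 0.279. In WT mice such correlations ran from -0.0324 to 0.0356, which does not show that equal numbers mark different mice. The values reported are from the fit without the block, and the blocked value stands beside them where it changes a call. No 2 libraries of the same group agreed within sampling noise (chi-square per degree of freedom at least 7.09).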

Additional observations from a re-analysis of the deposited data

Results flagged for a closer look

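Stam2, an adaptor of the partner list, was picked out because its fitted difference between genotypes pointed in opposite directions in different cells, with every library of V617F on one side of every WT library. The log2 difference of V617F over WT was 0.38 in CD41-negative HSC and -0.57 in MkP, which come from different protocols, and that difference was not tested. The log2 difference of CD41-positive over CD41-negative HSC was likewise -0.17 in V617F and 0.28 in WT mice. The test of that difference gave an unadjusted p of 0.0201 by edgeR's quasi-likelihood test and an adjusted p of 0.566. Stam2 was picked by these same values, so the unadjusted p is no independent support for the difference.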

How the results depend on the processing

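The counts of members that passed depend on the setting. For V617F against WT in CD41-negative HSC, 2 members passed, against 1 with no filter on low counts and 0 with only the groups compared, without the male V617F mouse, or without WT libraries 1 and 3. In CD41-positive HSC 0 passed, against 1 with no filter, DESeq2 or only the groups compared. In LT-HSC 0 passed, against 1 with DESeq2, and in MkP 0, against 1 with DESeq2 or only the groups compared. For MkP against LT-HSC in WT mice 1 passed, against 2 with DESeq2 and 0 with the replicate block. For CD41-positive against CD41-negative HSC in WT mice 6 passed, against 3 without CD41-negative libraries 1 and 3. Leaving out 1 library at a time, the counts ran from 0 to 5 for genotype in CD41-negative HSC, 3 to 5 between the fractions in V617F mice, 1 to 8 in WT mice and 0 to 1 for MkP against LT-HSC in WT mice. The cause was not tested.

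Over all genes, DESeq2 called 3380 for genotype in CD41-negative HSC (1941 with edgeR), 455 in CD41-positive HSC (168), 500 in LT-HSC (9), 1137 in MkP (250), 693 for MkP against LT-HSC in V617F (156) and 2803 in WT mice (1271). For the genotype difference between populations it called 6 in the CD41 fractions (0) and 523 in MkP and LT-HSC (65). A fit of only the groups compared called 269, 520, 0 and 762 genes for genotype in CD41-negative HSC, CD41-positive HSC, LT-HSC and MkP. With no filter 262 passed in CD41-positive HSC. In CD41-negative HSC 366 passed without the male mouse, 145 without WT libraries 1 and 3 and 3983 with the replicate block, and for the fractions in WT mice 1926 passed without CD41-negative libraries 1 and 3 (4917). With the block 5 passed for MkP against LT-HSC in WT mice (1271 without it). Whether equal numbers mark the same mouse there is not given.

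With 1 library left out the calls over all genes ran from 282 to 6021 for genotype in CD41-negative HSC, 32 to 170 in CD41-positive HSC, 0 to 23 in LT-HSC and 46 to 415 in MkP. Between the fractions they ran from 3380 to 4721 in V617F and 1215 to 7082 in WT mice, and for MkP against LT-HSC from 31 to 52 in V617F and 1001 to 1818 in WT mice. For the genotype difference between populations they ran from 0 to 1766 in the CD41 fractions and 0 to 219 in MkP and LT-HSC. The log2 difference of Jak2 stayed between 1.46 and 2.04 in LT-HSC and between 1.41 and 1.59 in MkP. In V617F mice the block, which pairs the fractions, brought Jak2 past the threshold (adjusted p = 0.0499 by edgeR). In WT mice, where pairing by number was not established, it ended the Tyk2 call (0.0767).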
